A study of Mus musculus with 19 samples.

Results

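The C57BL/6 dendrite transcriptome was described from 14 of the 19 arrays of the series, chosen by their titles alone: every array of a C57BL6 mouse pool was taken. Each array held RNA from dendrites cut with glass pipettes from hippocampal neurons of C57BL/6 embryos of embryonic day 18 (animals of Charles River Laboratories), which had grown as dispersed primary cultures for 14 days and received no treatment. The arrays fell into 4 pools of 100 dendrites, 5 pools of 200 and 5 pools of 400, and the RNA of every pool went through 3 rounds of amplification before hybridisation to an Affymetrix mouse expression array. The 5 arrays of the other strain were not used here. The study states that axons could not be told from dendrites by shape, so some axons are among the neurites of each pool. The pools are called biological replicates, but the sources do not say that they came from separate cultures or litters, so each SD and p-value below measures the spread between pools, which may be technical, and its precision is limited by the number of arrays. Arrays are named by pool size and replicate number, so that 200-1 is the first replicate of the pools of 200 dendrites.

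A dendrite is the branched extension on which a neuron receives most of its synapses. Part of the mRNA made in the nucleus is carried into dendrites along microtubules, and ribosomes and mitochondria lie there, so that proteins can be made and energy supplied close to synapses. Well known cargoes are the mRNAs of a calcium-dependent kinase subunit (Camk2a), of a microtubule-associated protein (Map2) and of the activity-regulated gene Arc. Genes of cell division, of other organs or of the sense of smell are not among these well known cargoes.

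A gene's level was the median of its probe sets on the deposited log2 scale, which gave 18193 genes, and all levels below are log2 array signals with the mean ± SD over the 14 arrays. Signals of different genes depend on their probes, so a rank is a rank of array signal and not of RNA amount. Mean levels ran from 3.17 to 15.45 with a median of 6.80, and the median SD was 0.551. The top 5% by mean level held 910 genes (5% of those measured), the lowest of them Uqcrc2, a core subunit of respiratory complex III, at 9.89 (9.888) and the first gene outside it Rpl13a at 9.89 (9.886). As a reference for little or no RNA, 71 olfactory and vomeronasal receptor genes were used, which serve sensory neurons of the nose. The median of their mean levels was 5.95, and the 95th percentile of their means, 9.00, was taken as the reference level.

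Arrays 200-1 and 400-1 stood furthest apart from the rest in their correlations over all genes. Their mean correlations with the other 12 arrays were 0.750 and 0.773, while each of those 12 had a mean correlation of 0.806 to 0.894 with its fellows, and the pair correlated at 0.849 with each other. The difference between the 3′ and 5′ control probe sets of Actb, a measure of how far copies were shortened, was 1.17 in 200-1 and 1.65 in 400-1 against 3.27 to 5.56 in the other arrays. For Gapdh it went the other way in 200-1, at 5.00 against 2.39 to 3.80 in the other arrays, with 3.151 in 400-1. The nearest pair was 100-3 and 100-4 at 0.945. Array 100-2 had the lowest value of the 12, 0.806, and its nearest array correlated with it at 0.843. It is still contained in the values without 200-1 and 400-1. Values without 200-1 and 400-1 are given beside the genes, lists and counts that rest on them. Of the other genes named below, the SD was more than 1.5 times as large with as without these arrays for Ndufa2 (0.76 and 0.50), Slc25a4 (0.72 and 0.38), Gria2 (0.73 and 0.42), Shank3 (0.50 and 0.32), Arc (0.49 and 0.28), Olfm1 (0.66 and 0.39), Ube2e1 (0.53 and 0.32), Tbr1 (0.90 and 0.37), Kdr (0.76 and 0.40), Pcna (0.83 and 0.54), Dynll1 (1.12 and 0.74), Asns (0.71 and 0.44) and Cyp26b1 (1.6996 and 1.1046).

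The highest signals of the C57BL/6 dendrites came from a mixed set: genes of the neuronal cytoskeleton and of ATP synthesis stood beside genes known from other tissues. Smc1b, a cohesin subunit of meiosis, had the highest level, at 15.26 in the lowest array, 15.46 at the median and 15.61 in the highest (15.45 ± 0.11). Sult2b1, which sulfates cholesterol, lay between 15.13 and 15.59, and Acot3, a peroxisomal acyl-CoA thioesterase, between 14.72 and 15.34. All 3 were nearly level over the pools. Oxt, the oxytocin precursor, followed at 15.02 ± 0.30 (14.32 to 15.41) and Grid2ip, a scaffold that binds the delta glutamate receptor of Purkinje cells, at 14.89 ± 0.32 (14.22 to 15.38). Tuba1a, the main alpha-tubulin of growing neurons, was the sixth gene at 14.74 ± 0.49, with 13.67 in array 100-2, 14.91 at the median and 15.40 in array 400-1. Tead3, a transcription factor of the Hippo pathway, reached 14.56 ± 0.19, Jagn1, a protein of the endoplasmic reticulum, 14.47 ± 0.51, and Sil1, which recharges the chaperone BiP, 14.31 ± 0.36. Atp5g3, a copy of the proton-carrying ring subunit of ATP synthase, Stmn4, a stathmin that binds tubulin, and Basp1, a membrane protein of growth cones, completed the highest 12 at 14.22 ± 0.57, 14.17 ± 0.86 and 14.10 ± 0.54. Each of these 12 was read by 1 probe set and lay in the top 5% of each of the 14 arrays. For Stmn4 the SD rested on 200-1, where it was 11.46 against a median of 14.38, and fell to 0.38 without 200-1 and 400-1.

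**Figure D1:**
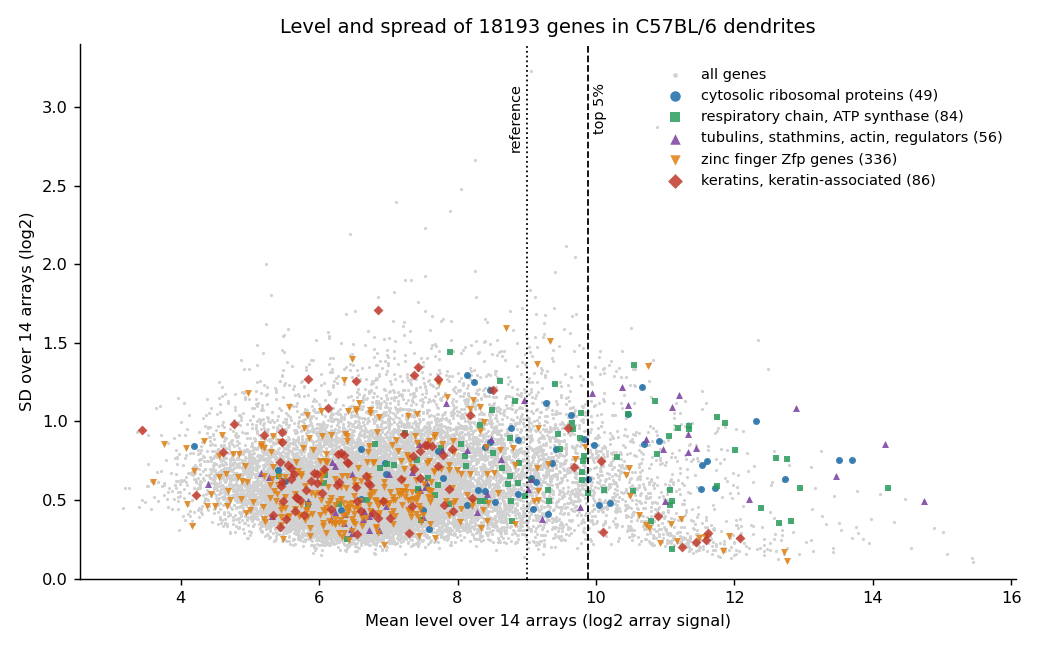
Mean level (x axis, log2 array signal) against SD (y axis, log2) over the 14 arrays for 18193 genes, with 5 gene lists in colour, the reference level of 9.00 dotted and the lower limit of the top 5% dashed. Ribosomal, respiratory and cytoskeletal members right of the dashed line lie mostly above an SD of 0.5, whereas zinc finger and keratin members there lie mostly below it.

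Of the functions examined, cytoskeleton and energy supply filled the largest shares of their lists into the top 5%: 20 of 80 cytoskeletal genes (25.0%) and 41 of 200 energy genes (20.5%), against 5% of all genes. Known dendritic mRNAs and the mRNAs that the study stained by in situ hybridisation together reached 19.4% (7 of 36). The study chose the stained ones with array levels known. Protein synthesis reached 12.9% (23 of 178), synaptic genes 11.9% (7 of 59), protein turnover 10.4% (19 of 182), and motors with Rab GTPases 10.2% (12 of 118). Receptors and channels stayed below the share of all genes with 2.52% (4 of 159). The lists do not describe most of the top 5%: 198 of the 910 genes were in any list and 712 in none. These are counts of members with no test, and the lists differ in how many probe sets a gene has.

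**Figure D2:**
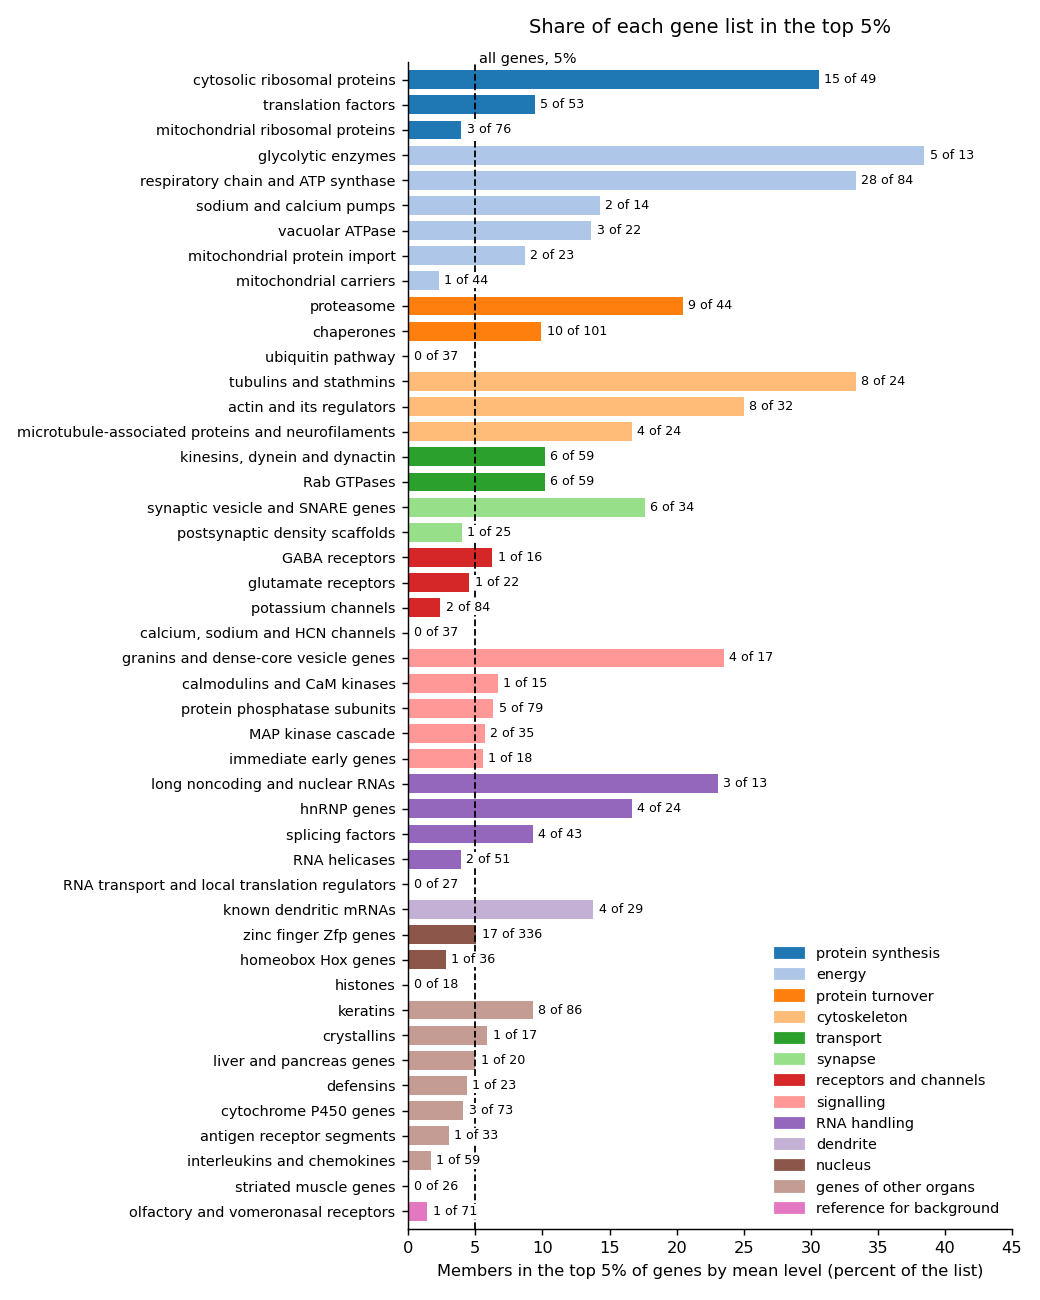
Share of each functional gene list of 10 or more genes that lay in the top 5% of genes by mean level (x axis, percent of the list), with the number of members beside each bar, bars coloured by function and the 5% of all genes dashed. The longest bars among these lists are the glycolytic enzymes (5 of 13), the respiratory chain and ATP synthase (28 of 84) and the tubulins and stathmins (8 of 24).

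Many but not all genes of energy supply were high. Of 84 measured genes of the respiratory chain and ATP synthase, 28 (33.3%) lay in the top 5%, 42 (50%) above the reference level and 17 above the reference of the array in all 14 arrays, while 19 were above it in none. The list's median level was 9.02 against 6.80 for all genes. After Atp5g3 the highest were Sdhb, the iron-sulfur subunit of complex II (11.60 to 13.72, median 12.91), and 2 accessory subunits of complex I, Ndufa1 (12.14 to 13.58, median 12.83) and Ndufa2 (10.96 to 13.66, median 12.91). Array 200-3 gave the highest level for each of these 4 genes. Ndufv2, a core subunit of complex I, was the most variable member of the list in the top 5% at 10.55 ± 1.36, with 6.98 in 200-1 and 11.73 in 100-3, and its SD was 0.48 without 200-1 and 400-1. Of 13 glycolytic enzymes 5 (38.5%) were in the top 5% and 7 not above the reference level. The highest were the lactate dehydrogenase subunit Ldhb at 12.57 ± 0.81, phosphoglycerate mutase Pgam1 at 12.54 ± 0.61 and phosphoglycerate kinase Pgk1 at 11.48 ± 0.75. Eno2, the neuronal enolase, was at 6.02 ± 0.86 on its 1 probe set and lay above the reference in no array. Among 44 mitochondrial carriers only the ADP/ATP carrier Slc25a4 (12.28 ± 0.72) reached the top 5%, and among 76 mitochondrial ribosomal proteins 3 did (3.95%), led by Mrpl57 at 13.13 ± 0.17. The vacuolar ATPase, which acidifies vesicles, placed 3 of 22 genes there, with its accessory subunit Atp6ap2 at 13.78 ± 0.56. The sodium pump subunit Atp1b1 was at 11.38 ± 0.75.

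Cytosolic ribosomal protein genes were high but uneven. Of 49, 15 (30.6%) were in the top 5% and 25 above the reference level, with a median of 9.06. Rps28 ranged from 11.76 in 200-1 over a median of 13.83 to 14.43 in 200-3 (13.70 ± 0.75), Rps29 from 11.60 in 200-1 to 14.39 in 100-4 (13.51 ± 0.76), Rpl7a from 11.23 in 200-1 to 13.50 in 200-3 (12.73 ± 0.64), and Rps9 from 8.96 in 200-1 to 13.03 in 200-5 (12.31 ± 1.0). For all 4 the lowest array was 200-1, and without 200-1 and 400-1 their SDs were 0.53, 0.55, 0.39 and 0.30. At the other end Rps16, a protein of the small subunit, was at 4.19 ± 0.84 on its 1 probe set, under the reference of the array in all 14 arrays. Ribosomal proteins are made in near equal number in a cell and many have processed copies in the genome that can share probes, so the order of these genes is uncertain. Of 53 translation factors 5 (9.43%) were in the top 5%, and 6 (11.3%) with the highest probe set of each gene. The elongation factor Eef1a1, which brings charged tRNA to the ribosome, lay at 11.04 ± 0.88, and Eef1b2, which recharges it, at 11.01 ± 0.74. The termination factor Gspt1 was at 4.41 ± 0.46, but its 6 probe sets differed by 4.69 in mean level.

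Many mRNAs of the translation machinery begin with a run of pyrimidines through which their translation is controlled. The bases around the RefSeq start were therefore read for 3 of the 4 highest ribosomal genes, which were taken by level and not by this feature. Each window runs from 10 bases before the start through 20 bases from it in the RefSeq annotation of GRCm38.p6, 5′ to 3′ on the gene's strand, with runs of at least 8 C or T bases in capitals.
Rpl7a, chr2:26910797-26910826, plus strand: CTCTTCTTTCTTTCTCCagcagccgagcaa
Rps9, chr7:3704031-3704060, plus strand: cttgTCTCTCTTTgtctcgggcctgagttc
Rps28, chr17:33824543-33824572, minus strand: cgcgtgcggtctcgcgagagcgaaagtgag
Inside the window the run took up 17 bases in Rpl7a, where it began at the first base shown and may extend further, and 9 in Rps9, and no run of 8 was found in the window of Rps28, which had the higher level. Such a run lay in this window in 17 of the 43 ribosomal genes with an entry (39.5%) and in 7 of the 14 of them in the top 5% (50%), against 3021 of all 27025 promoters of the table (11.2%). The match describes letters in a window of 30 bases on the gene's strand and no site was tested.

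Tubulins, a stathmin and actin led the cytoskeletal genes. Of 24 tubulins, stathmins and tubulin cofactors 8 (33.3%) were in the top 5%. After Tuba1a and Stmn4 came the beta-tubulin Tubb2b, from 12.37 in 100-2 over a median of 13.33 to 14.83 in 400-1, and the stathmins Stmn3 (11.33 ± 0.81) and Stmn2 (11.20 ± 1.17). Stmn2 was lowest in 200-1, at 8.5, and its SD was 0.62 without 200-1 and 400-1. Of 32 genes of actin and its regulators 8 (25.0%) were in the top 5%, and their median SD of 1.004 was the highest of the lists with at least 2 members there. Actg1, gamma-actin, ran from 10.31 in 200-1 over a median of 13.13 to 14.41 in 200-3, and its SD of 1.08 was 0.69 without 200-1 and 400-1. Actb, beta-actin, was steadier, from 11.25 in 100-2 to 13.16 in 200-2 (12.21 ± 0.51). The profilin Pfn2 (11.45 ± 0.83) and the actin-binding thymosins Tmsb4x (11.32 ± 0.92) and Tmsb10 (10.37 ± 1.22) followed. Tubulin and actin genes are near-identical families whose probes may bind each other's copies, so the share of each is uncertain. Among microtubule-associated proteins and neurofilaments 4 of 24 were in the top 5%: Crmp1, which acts in axon guidance (11.96 ± 0.51), Mapt, the tau gene (10.53 ± 0.50), Map1lc3a, a protein of autophagosomes (10.44 ± 0.45), and Nefl, the light neurofilament (10.43 ± 0.72).

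**Figure D3:**
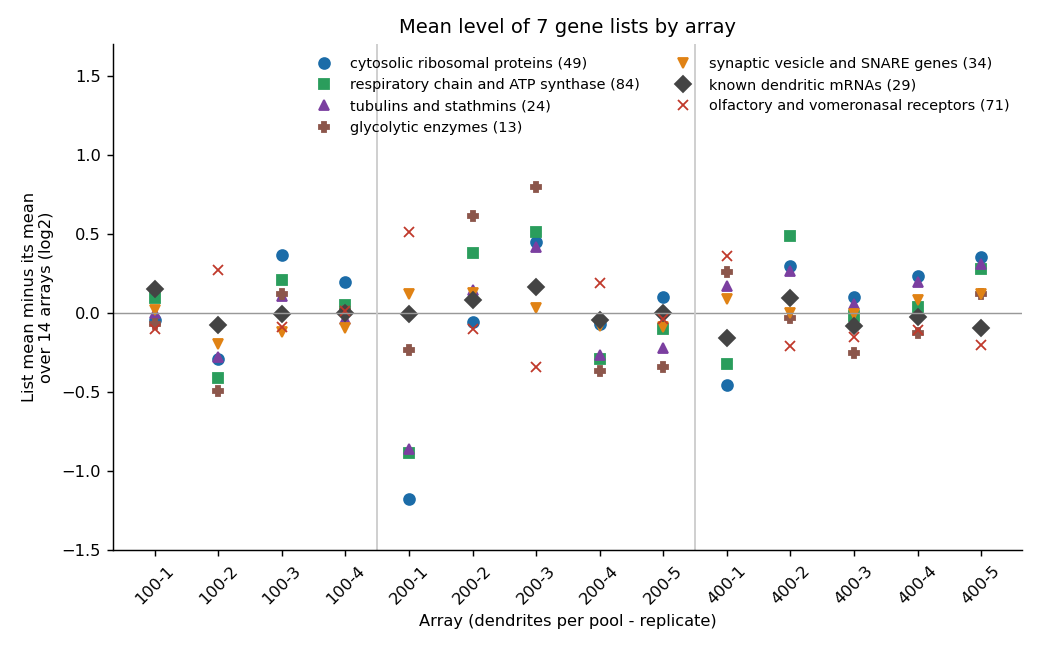
Mean level of 7 gene lists in each of the 14 arrays, given as the difference from the list's own mean over the arrays (y axis, log2; x axis, array by pool size and replicate). The ribosomal, respiratory and tubulin lists lie lowest in array 200-1 and the glycolytic list highest in 200-3, while the synaptic vesicle and dendritic mRNA lists stay within 0.2 of their means.

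The mean levels of the ribosomal, respiratory and tubulin lists were lowest in array 200-1. The mean level of the 49 ribosomal genes was 7.93 in array 200-1, 9.21 at the median and 9.55 in 200-3, that of the 84 respiratory genes 8.399 in 200-1, 9.33 at the median and 9.79 in 200-3, and that of the 24 tubulins and stathmins 8.23 in 200-1 and 9.50 in 200-3. Without 200-1 and 400-1 the lowest means of these lists were 8.82, 8.87 and 8.81, each in 100-2. The reference genes had their highest mean, 6.74, in 200-1 and their lowest, 5.88, in 200-3, and without 200-1 and 400-1 the highest was 6.50 in 100-2. Over the 14 arrays the mean correlation between members was 0.25 for ribosomal and 0.22 for respiratory genes, against 0.01 for all genes, 0.13 for the receptor genes of the reference and 0.14 for Hox genes. Among the 10 arrays of the short number format described below the ribosomal and respiratory values were 0.13 and 0.19 and those of reference and Hox genes 0.04 each. Of the other lists of energy and protein synthesis, glycolytic enzymes had a correlation of 0.24 over the 14 arrays, against 0.10 for translation factors, 0.08 for the vacuolar ATPase, 0.03 for mitochondrial import, 0.04 for mitochondrial ribosomal proteins, 0.02 for mitochondrial carriers and -0.01 for ion pumps, and the pumps had their highest list mean, 7.81, in 200-1. The 34 synaptic vesicle genes (8.18 to 8.496) and the 29 known dendritic mRNAs (7.92 to 8.25) had list means within a narrower range, with correlations of 0.01 and -0.01. Among the short-format arrays the correlation was 0.39 for glycolytic enzymes and 0.13 for the vacuolar ATPase. Translation factors, mitochondrial import, mitochondrial ribosomal proteins, mitochondrial carriers and ion pumps had -0.01 to 0.05 there. All of these correlations are descriptions, and the 14 arrays include 2 outlying members that the short format leaves out.

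Transport genes were represented by dynein and by a few Rab proteins. Of 59 kinesin, dynein and dynactin genes 6 (10.2%) were in the top 5%, and the highest were parts of the dynein motor, which moves cargo towards microtubule minus ends: Dync1i2, an intermediate chain, at 12.04 ± 0.55 and Dynll2, a light chain, at 11.22 ± 0.99. Of 59 Rab GTPases 6 were there. Rab19 (11.99 ± 0.15), Rab33b (11.85 ± 0.22) and Rab5a of early endosomes (11.40 ± 0.16) had small SDs, whereas Rab3b, a Rab of secretory vesicles, ran from 8.27 in 200-1 to 12.25 in 200-2, with an SD of 1.06 that was 0.57 without 200-1 and 400-1. Protein turnover was uneven. The proteasome placed 9 of 44 genes (20.5%) in the top 5%, led by the lid enzyme Psmd14 at 12.05 ± 0.66, and the chaperones 10 of 101 (9.90%), led by the chaperonin subunit Tcp1 at 12.18 ± 0.80 and the co-chaperone Dnaja1 at 11.27 ± 0.60. By the median of probe sets none of 37 conjugating and other ubiquitin genes was in the top 5% or above the reference level, the highest being Ube2e1 at 8.95 ± 0.53. That level lies between probe sets of Ube2e1 at 11.35 and 6.54, 12 of the 37 genes (32.4%) had a probe set above the reference level against 22% of all genes, and with the highest probe set 3 of 37 (8.11%) were in the top 5%. The count of genes with any probe set above the level was added after the data were seen.

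Synaptic genes were led by those of vesicles. Of 34 vesicle and SNARE genes 6 (17.6%) were in the top 5% and 12 above the reference level. Sncb, beta-synuclein, lay between 11.68 and 12.29 with a median of 11.84, Sv2a, a vesicle glycoprotein, between 10.32 and 11.25 with a mean of 10.97, and Syp, synaptophysin, between 9.61 and 10.83 with a median of 10.50. Cplx2, a complexin that clamps SNARE complexes, was at 10.46 ± 0.40. In the postsynaptic density only 1 of 25 scaffold genes was in the top 5%, Baiap2, which links membranes to actin, at 10.09 ± 0.34. Of the receptors, the top 5% held Gabra5, an alpha subunit of mostly extrasynaptic GABA receptors (11.82 to 13.59, median 12.78), and Grm8, a metabotropic glutamate receptor (10.38 to 11.19, median 10.84). Both were in the top 5% of all 14 arrays. The potassium channel subunits Kcnn2, of calcium-gated SK channels, and Kcnmb2, of BK channels, were at 11.46 ± 0.28 and 11.05 ± 0.28, the only 2 of 84 potassium channel genes there. None of 37 calcium, sodium and HCN channel genes was in the top 5%. Taking the highest probe set of a gene in place of the median gave 4 of 25 scaffolds, 2 of these 37 channels and 7 of 34 vesicle genes in the top 5%, so that the scaffold share moved from 4% to 16%.

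By the median of probe sets, most of the known dendritic mRNAs were not above the reference level, though fewer than among all genes. Of 29 measured, 4 (13.8%) were in the top 5% and 8 above the reference. The other 21 (72.4%) were not above it, against 90.3% of all genes. Counting any probe set, 15 of the 29 (51.7%) had one above the reference level, against 22% of all genes. Nrgn, a calmodulin-binding protein of spines, was the highest, from 12.71 in 100-2 over a median of 12.99 to 13.52 in 400-3. Actb, Pcp4, a calmodulin regulator (11.15 ± 0.77), and Eef1a1 were the other 3. Adcy1, an adenylyl cyclase (9.59 ± 0.33), Kcna1, a potassium channel (9.57 ± 0.83), the AMPA receptor subunit Gria2 (9.12 ± 0.73) and Cplx1 (9.02 ± 0.47) were above the reference level but not in the top 5%. Camk2a lay between 6.56 and 7.47 with a median of 6.89, Arc between 6.19 and 8.12 with a median of 6.66, and Map2 between 7.34 and 8.55 with a median of 7.96. None of these 3 was above the reference of the array in any array. Shank1 (6.65 ± 0.65), Shank3 (7.85 ± 0.50), Ddn (7.99 ± 0.67) and Dlg4, the postsynaptic scaffold PSD-95 (7.05 ± 0.60), were likewise not above it. The probe sets of a gene mattered here, since those of Map2 had means from 6.26 to 12.64 and those of Dlg4 from 6.55 to 11.77, and Camk2a had 6 probe sets with a spread of 3.55. With the highest probe set of each gene 5 of the 29 were in the top 5%. Of 27 genes that carry mRNA or control local translation none was in the top 5% by the median of probe sets and 3 (11.1%) were with the highest one, and 2 splicing regulators of neurons, Rbfox3 (9.83 ± 0.72) and Rbfox1 (9.30 ± 0.38), were above the reference level by the median, while 15 of the 27 (55.6%) had a probe set above it against 22% of all genes. Among the mRNAs that the study stained by in situ hybridisation, Clasrp (10.91 ± 0.32), Olfm1 (10.28 ± 0.66) and Hnrnpk (10.19 ± 0.72) were in the top 5%, H2az1 (9.41 ± 0.98) and Commd3 (9.02 ± 0.20) above the reference level, and Rps6 (7.5 ± 0.43) and Zfp410 (6.82 ± 0.49) not above it.

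Signalling genes and secreted peptides were mixed. Ywhab, a 14-3-3 adaptor, was at 13.44 ± 0.52, Ppp2r1a, the scaffold of phosphatase 2A, at 13.11 ± 0.71 and Mapk15, an atypical MAP kinase, at 12.27 ± 0.28. The dense-core vesicle genes placed 4 of 17 (23.5%) in the top 5% and 5 of 17 (29.4%) in the most variable 5%. Chgb, chromogranin B, ran from 11.20 in 200-1 over a median of 13.25 to 14.30 in 200-3, and its SD of 0.81 was 0.52 without 200-1 and 400-1. Scg2, secretogranin II, ran from 7.82 in 100-2 to 11.97 in 400-2, and Vgf, a granin induced by neurotrophins, from 8.68 in 200-4 to 11.96 in 400-2. Cck, the cholecystokinin precursor, ran from 5.82 in 200-1 to 10.51 in 400-2, which was thus the highest array for 3 of these peptide genes. Pam, the enzyme that amidates peptides, was at 11.18 ± 0.37.

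**Figure D4:**
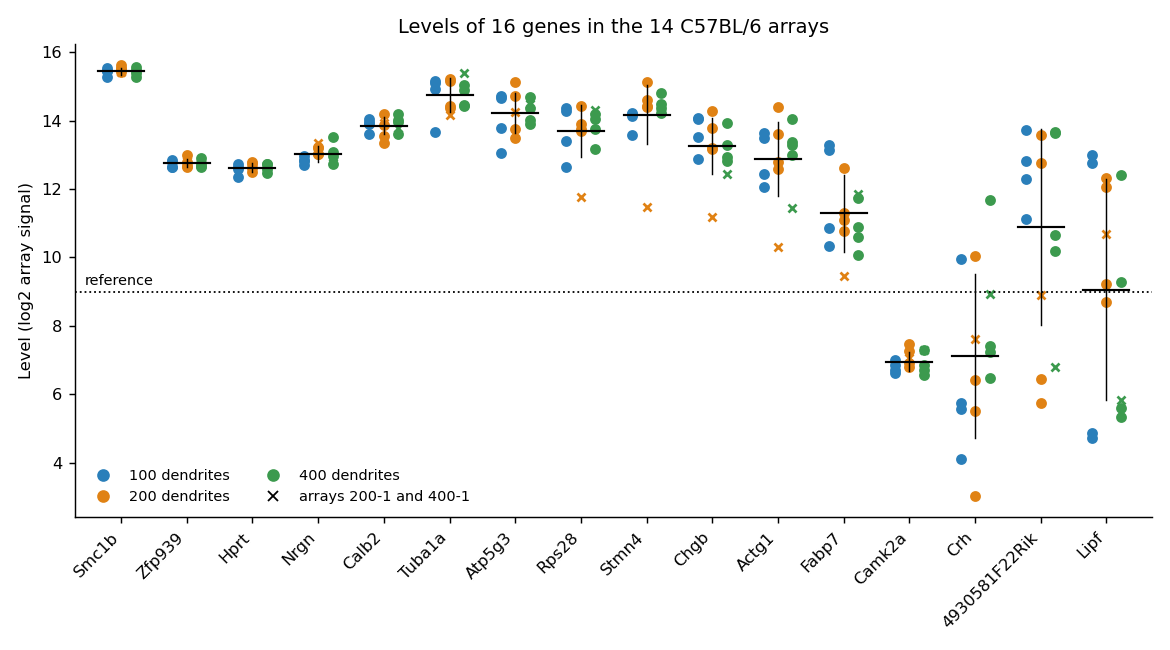
Level (y axis, log2 array signal) of 16 genes in the 14 arrays, coloured by pool size with arrays 200-1 and 400-1 as crosses, black bars at the mean, vertical lines of ± 1 SD and the reference level of 9.00 dotted. Smc1b, Zfp939 and Hprt spread over less than 0.5, whereas Crh, 4930581F22Rik and Lipf spread over more than 7 and cross the reference level.

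Genes that are not well known from dendrites were also in the top 5%. Of 336 zinc finger Zfp genes 17 (5.06%) were there, near the 5% of all genes. Their median SD was 0.33 against 0.516 for the whole top 5%. Zfp939 lay from 12.63 upwards with a mean of 12.76 ± 0.11, Zfp607b between 12.39 and 12.98, and Zfp994 between 11.45 and 12.05. Of 86 keratin and keratin-associated genes 8 (9.30%) were there with a median SD of 0.28, led by Krt5, a keratin of the basal epidermis, at 12.08 ± 0.26. Taking the highest probe set gave 15 Zfp genes with a median SD of 0.26 and 4 keratins (4.65%) with one of 0.25, where the median SD of the whole top 5% was 0.30. Hoxc6, a Hox gene of the trunk, was at 11.22 ± 0.23, and Olfr15, itself 1 of the reference genes, at 11.93 ± 0.27, in the top 5% in all 14 arrays. Of 343 genes of other organs together 16 (4.66%) were in the top 5%, again near the 5% of all genes, and their SDs ran up to 0.93. The source of these signals was not tested.

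The labels give pyramidal neurons as the cell type, and 11 of 17 genes listed here as markers of that class (64.7%) were not above the reference level, against 90.3% of all genes. In the top 5% was 1 of the 17 (5.88%), close to the 5% of all genes, and 6 were above the reference: Nnat, a proteolipid of developing neurons, at 13.17 ± 0.58 in all 14 arrays, then Nr3c2 (9.65 ± 1.67), Crym (9.49 ± 1.25, with an SD of 0.55 without 200-1 and 400-1) and the transcription factors Neurod2 (9.23 ± 0.54), Neurod6 (9.20 ± 1.06) and Neurod1 (9.04 ± 0.70). The list members Slc17a7, the vesicular glutamate transporter (6.36 ± 0.52), Tbr1 (6.83 ± 0.90) and Prox1 (5.91 ± 0.87) were above the reference of the array in no array. Of 14 markers of GABAergic interneurons 2 were in the top 5% and 4 above the reference: Calb2, calretinin, lay between 13.36 and 14.20 with a median of 13.92, and Gad1, which makes GABA, between 9.72 and 11.31 with a median of 10.60, both above the reference in all 14 arrays, while Reln (9.14 ± 0.50) and Lhx6 (9.05 ± 0.88) were just above it. Slc32a1, the vesicular GABA transporter, was at 6.61 ± 0.53 by the median of its 4 probe sets and above the reference in no array, but 1 of these probe sets had a mean of 9.74 ± 1.26. By the median of probe sets the top 5% thus held 1 of the 17 pyramidal and 2 of the 14 GABAergic markers (14.3%). With the highest probe set it held 2 of the 17 (11.8%) and 1 of the 14 (7.14%), so the order of the lists depended on the probe set. Other cell types had at most 1 marker in the top 5%. Of 14 astrocyte markers this was Fabp7, a fatty acid binding protein of glial precursors, which ran from 9.46 in 200-1 over a median of 10.98 to 13.30 in 100-3 (SD 1.13, and 1.08 without 200-1 and 400-1), while Gfap (6.03 ± 0.72) and Aqp4 (6.18 ± 0.60) were under the reference in every array. By the median of probe sets Fabp7 alone was above the reference level. However, 7 of the 14 astrocyte markers (50%) had a probe set above it, against 22% of all genes. Besides Fabp7 these were Slc1a3, Slc1a2, Gja1, Sox9, Aldoc and Glul. With the highest probe set none of the 14 was in the top 5%. Of 14 microglial markers the 1 in the top 5% was Tyrobp (9.92 ± 0.82), with Aif1 at 5.27 ± 0.88, and of 12 vascular markers Kdr (11.30 ± 0.76), with Cldn5 at 5.99 ± 0.49. None of 13 oligodendrocyte, 10 fibroblast, 10 dividing cell or 4 red blood cell markers was in the top 5%, and of these only Pcna (9.57 ± 0.83) and Hba-a1 (9.37 ± 1.40) were above the reference level by the median of probe sets. Single probe sets of Mbp of myelin (9.51), Dcn (9.68) and Vim (12.55) of the fibroblast list and Cenpf (11.25) of dividing cells lay above it too, and with the highest probe set 1 of the 10 fibroblast markers was in the top 5%. In pooled material fewer cell parts of a type and less RNA in each cannot be told apart.

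Nearly all genes lay at background by the reference of receptor genes, and the number depended on the limit. At the 95th percentile of the reference genes 16433 genes (90.3%) were not above it and 1760 were. At their 75th percentile 8619 (47.4%) were not above it. The 27 probe sets for bacterial spike-in and control RNA had means from 3.41 to 8.14, and 23.7% of genes were above their 95th percentile. Among functions that dendrites use, 52 of 80 cytoskeletal and 132 of 200 energy genes (65.0% and 66.0%) were not above the 95th percentile of the reference, 145 of 159 receptor and channel genes (91.2%) and 314 of 343 genes of other organs (91.5%). The lowest members of the lists of protein synthesis, energy, cytoskeleton, synapse and dendrite were Rps16 and Gspt1, given above, with the actin capping subunit Capza3 of sperm at 4.40 ± 0.60, the mitochondrial importer Timm8a2 at 4.47 ± 0.91, the vesicle glycoprotein Sv2c at 4.85 ± 0.56 and the ADP/ATP carrier Slc25a31 of the testis at 4.92 ± 0.66. Lying under the limit says that the signal was no higher than that of most receptor genes, not that RNA was absent.

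Most genes were above the reference of the array in no array. In each array on its own, between 1116 and 2926 genes (6.13% to 16.1%) were above the 95th percentile of the reference genes. Over the arrays 13821 genes (76.0%) were above it in none, 1136 in 1 and 569 (3.13%) in all 14. For the top 5% of each array the counts were 1961 genes in any array, 335 in all 14 and 515 in 1 alone. The 910 genes of the top 5% by mean shared 664 to 810 genes with the top 5% of single arrays, and 828, 831 and 840 genes with the top 5% by mean of the pools of 100, 200 and 400 taken alone. Genes in the top 5% of 1 array alone included Ctla2b, a relative of cysteine protease propeptides, with 11.69 in 100-2 against a median of 4.81, Gnasas1, an antisense RNA of the imprinted Gnas locus, with 12.16 in 100-2 against 6.06, and Krt31, a hair keratin, with 11.77 in 100-2 against 6.12. Cyp26b1, which breaks down retinoic acid, had 13.43 in 200-1 against a median of 8.5.

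**Figure D5:**
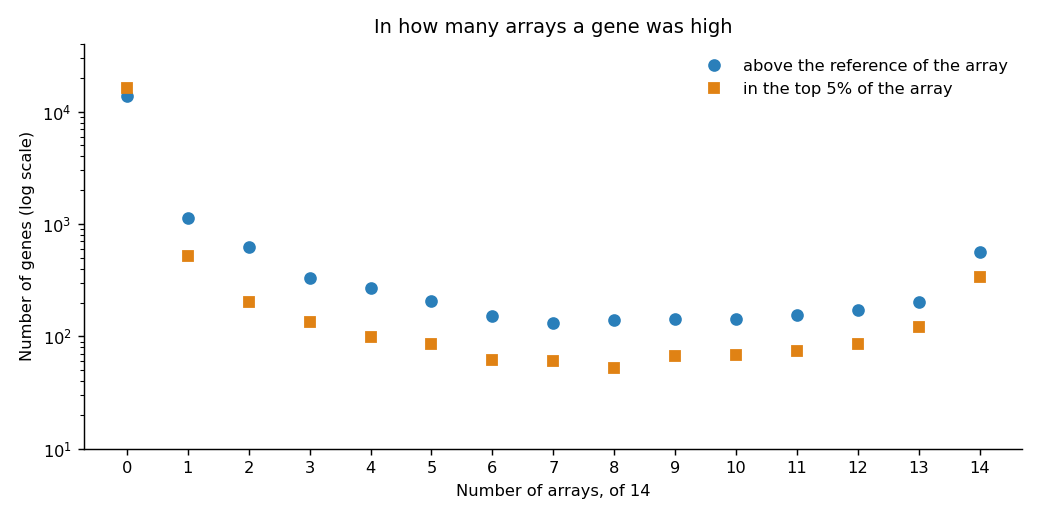
Number of genes (y axis, log scale) by the number of arrays, of 14, in which the gene was above the reference of the array (circles) or in its top 5% (squares). Both series fall from 1 array to 7 or 8 arrays and rise again to 569 and 335 genes at 14 arrays.

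Some of the genes with the largest spread between pools ran from background to high levels in single arrays. The most variable 5% held 910 genes (5%) with an SD of at least 1.04, and 730 of them (80.2%) had means not above the reference level, a smaller share than the 90.3% of all genes. Lipf, gastric lipase, was at 4.71 in array 100-1, 9.26 at the median and 12.99 in 100-4 (SD 3.23). 4930581F22Rik, a gene without a known role, ran from 5.75 in 200-3 over a median of 11.71 to 13.72 in 100-4, and Pglyrp2, which binds bacterial cell walls, from 4.23 in 400-5 to 11.31 in 100-4. Crh, corticotropin-releasing hormone of stress signalling, was at 3.03 in 200-3, 6.84 at the median and 11.69 in 400-2 and lay above the reference in 3 arrays. Ankrd45 (8.05 ± 2.48), the kidney transporter Slc22a19 (7.89 ± 2.34), the tRNA enzyme Trpt1 (7.52 ± 2.23) and the sulfotransferase Sult3a1 (6.44 ± 2.19) completed the 8 genes with the largest SD. Each has 1 probe set, and the SDs of all 8 stayed above 2 without 200-1 and 400-1. Several of them were high and low within a pool size: Lipf ran from 4.71 to 12.99 in pools of 100, from 8.69 to 12.31 in pools of 200 and from 5.34 to 12.40 in pools of 400. Ankrd45 lay between 5.91 and 6.66 in all 4 pools of 100 but reached 11.91 and 11.71 in pools of 200 and 400, and Sult3a1 was between 7.55 and 9.75 in the pools of 200 and not above 7.62 in the others.

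Inside the top 5%, 68 genes (7.47%) were also among the most variable 5%. In some of them 1 array lay far from the rest. Neu3, a membrane sialidase, was at 5.94 in 400-1 against a median of 11.06, and its SD of 1.60 was 0.36 without 200-1 and 400-1. Ccn3, a secreted matrix protein, was at 8.01 in 200-1 against a median of 12.91, with SDs of 1.52 and 0.89. Nxph3, a neurexophilin that binds neurexins, ran from 7.10 in 200-1 to 12.43 in 200-3, with SDs of 1.45 and 1.19, and Lypla2, which removes palmitate from proteins, from 8.92 in 200-4 to 13.71 in 400-1, with SDs of 1.39 and 1.02. At the other end, the steadiest genes of the top 5% after Smc1b were Zfp939, Hprt of purine salvage (12.36 to 12.78, SD 0.12), Sult2b1, Srp19 of the signal recognition particle (11.59 to 12.11, SD 0.13) and Mchr1, a receptor of melanin-concentrating hormone (11.63 to 12.04, SD 0.14).

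When the top 5% was split by SD into 4 groups of nearly equal size, the lists were spread unevenly over the groups. The median SDs of the groups were 0.24, 0.42, 0.62 and 0.91. The steadiest group held none of 15 ribosomal, 5 translation factor, 10 chaperone, 8 tubulin and stathmin and 8 actin members of the top 5%. It held 8 of 17 Zfp, 6 of 8 keratin, 3 of 6 synaptic vesicle and 3 of 6 Rab members. With the highest probe set part of this changed: the steadiest group then held 5 of 15 Zfp and 0 of 4 keratin members. It also held 2 of 11 chaperones, 1 of 10 tubulins and stathmins and 1 of 6 translation factors. Synaptic vesicle and Rab genes had 2 of 7 and 2 of 5 there. Ribosomal and actin genes still had 0 of 11 and 0 of 6. Genes read by 1 probe set were 81.6% of the steadiest group and 60.4%, 67.4% and 65.8% of the following ones, against 50.5% of all genes. Of the genes called between the number formats below, 0, 0, 6 and 31 lay in these groups. These were 0%, 0%, 2.64% and 13.6% of the groups, against 2.07% of all genes. The SD contains the difference between the formats, so this order is at least partly built in. Within pool sizes the median SD over all genes was 0.432 in pools of 100, 0.544 in pools of 200 and 0.468 in pools of 400, and without 200-1 and 400-1 those of the larger pools were 0.458 and 0.356.

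No gene was called for a change of level with pool size. Limma fitted the change in level for each doubling of pool size, and 0 of 18193 genes (0%) passed an adjusted p of 0.05, with 1001 (5.5%) at an unadjusted p under 0.05 and a smallest adjusted p of 0.13. The positive slope with the smallest p was that of Dnajc12, a co-chaperone of the hydroxylases that make dopamine and serotonin, with means of 4.78, 6.61 and 7.42 in pools of 100, 200 and 400 and a slope of 1.30 ± 0.22 (SE). The negative slope with the smallest p was that of Slc39a7, a zinc transporter, with means of 9.46, 7.72 and 6.92 and a slope of -1.25 ± 0.21. Neither lay in the top 5%. Without array 100-1 there were 2 calls, among the 10 arrays of the short format 3, with pool size as a factor 1, and by ordinary least squares 0. On simulated data with these arrays the fit recovered 80% of genes that differed by 2 and 9% of those that differed by 1 on the log2 scale between pools of 100 and 400, so most changes of 1 would have been missed with these arrays. The simulated noise was drawn independently for each value. Its spread was that left after the number format described below was fitted too, so recovery in the real data may be lower.

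The deposited values of arrays 100-1, 100-2, 200-1 and 400-1 were written with 14 decimals and those of the other 10 arrays with 9, which was taken as a technical split of unknown origin. Between these formats limma, with pool size as a covariate, called 377 genes (2.07%, with 20.1% at an unadjusted p under 0.05), 152 higher (0.835%) and 225 lower (1.24%) in the long format. After quantile normalisation the split was 98 higher and 262 lower. Dynll1, a dynein light chain, had means of 7.23 in the 4 long-format and 9.42 in the 10 short-format arrays, and the difference at equal pool size was -2.26 ± 0.29 (SE, adjusted p = 0.0116 by limma). Asns, asparagine synthetase, had means of 9.63 and 11.01 and Eif1ax, an initiation factor, 7.62 and 9.48. Of 84 respiratory genes 13 (15.5%) were called and of 49 ribosomal genes 4, each of them lower in the long format. The calls rested on single arrays: without 400-1 there were 0, without 200-1 6, without both 99 (78 higher, 21 lower, 13 of them among the 377), and without 100-1 1415. The Actb 3′ to 5′ difference moved with the format, with means of 2.70 in the long and 4.34 in the short format, a difference of -1.64 (exact permutation test over 1001 regroupings, two-sided, p = 0.022, adjusted over 2 control genes 0.044). Without 200-1 and 400-1 it was -0.35 (p = 0.53, exact over 66 regroupings). For Gapdh the difference was 0.37 (exact p = 0.343). Their part in the spread between pools was not tested.

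How a gene's probe sets are joined shaped the ranking. Of the 9010 genes with 2 or more probe sets, 4588 (50.9%) had probe sets more than 2 apart in mean level. With the highest probe set in place of the median, only 372 of the 910 genes of the top 5% remained and 398 of the 910 most variable ones. The respiratory list still counted 28 of 84 there, the tubulin and stathmin list 10 of 24, the ribosomal list 11 of 49 and the Zfp list 15 of 336, while the proteasome list counted 5 of 44. Without the probe sets whose names mark them as matching several transcripts, the top 5% held 9 ribosomal and 4 tubulin and stathmin genes. Among the 9183 genes with 1 probe set, where no choice arises, the shares in the top 5% were 32.4% for respiratory, 24.0% for ribosomal and 30% for tubulin and stathmin genes.

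Genes of the top 5% were shorter than the rest by their RefSeq span. The median gene length was 14.3 kb in the top 5% against 20.2 kb for all genes, with 99.7% of both having a length, and it lay between 13.3 and 15.4 kb for the top 5% of single arrays. Ribosomal genes had a median of 3.35 kb and respiratory genes of 7.15 kb. With the highest probe set the order turned, to 27.0 kb in the top 5%.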

How the data were processed

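RNA of dendrite pools was hybridised to Affymetrix mouse expression arrays. The authors deposited log2 expression values per probe set, which per the labels they made with RMA version 2.0 and, per their methods, by taking each probe set at its probes' upper decile. Centring on the median and division by the span from the 10th to the 90th percentile is described as well, but the columns do not show it: medians of arrays lay between 6.62 and 6.86 and spans between 4.57 and 4.95. It was tried as an alternative. No aligner or genome build applies to these values.

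Of 45101 probe sets, 64 controls, 932 with several symbols and 9160 with none were left out of the gene table, and a gene was the median of the other 34945. Of the 18193 genes 18145 (99.7%) matched the RefSeq table of GRCm38.p6. Arrays were grouped by title, no column of the 14 was left unused, and no filter on dim genes was applied. For pool size and number format, limma 3.58.1 in R 4.3.3 fitted linear models (lmFit) with moderated variances (eBayes) to all genes, with Benjamini-Hochberg adjustment at 0.05, and control probe sets by exact permutation (Python 3.11.15, numpy 2.4.6). Scripts were tested on simulated data, in which the slope and the format fit each recovered 80% of differences of 2. The rule for named genes took the 12 highest, the 8 most variable, the 8 most and least variable of the top 5%, up to 4 high and 2 variable members per list, the 6 lowest members of expressed functions, dendritic, in situ and marker genes, and the 4 smallest p in each direction. Genes of the figures and Rpl13a were added for description. The arrays, lists and rules were chosen with earlier results of these data known. Promoter sequences covered 79.4% of genes, under the 80% set as a minimum, so promoter composition of the top 5% is not compared. Replicate numbers did not pair arrays of different pool size, and alternatives covered normalisation, probe set choice, each array left out, covariates and limits.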

Additional observations from a re-analysis of the deposited data

Results flagged for a closer look

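Within each pool size, the highest or lowest array was singled out when its gap to the nearest other array, as a share of the whole range of that pool size, passed Dixon's 95% limit. This was done for 161 genes named in the text, for means of gene lists and for array measures. Of 531 groups in all, 53 (9.98%) passed. Some of these genes were named for their spread and all share the same arrays, so this share has no chance rate to compare with. Array 400-1 accounted for 17 of the 53, 100-2 for 15 and 200-1 for 14, and the numbers in parentheses are the gap shares. The cause was not tested.

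Among pools of 100, array 100-2 was low for Uqcrc2 (0.916), Tuba1a (0.843), Sil1 (0.957), Stmn4 (0.865), Pgam1 (0.896), Gria2 (0.898), Rbfox1 (0.962), Olfm1 (0.897), Hnrnpk (0.92), Reln (0.912) and Lypla2 (0.882) and in its mean correlation with the other arrays (0.902). It was high for Gnasas1 (0.832), Krt31 (0.953) and the mean of the Zfp genes (0.849). Array 100-1 was low for Rps16 (0.835) and high for Sult3a1 (0.923), and 100-4 was high for Commd3 (0.889).

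Among pools of 200, array 200-1 was low for the ribosomal genes Rps28 (0.731), Rpl7a (0.744) and Rps9 (0.717), for Stmn4 (0.801), Ndufv2 (0.849), Ube2e1 (0.882), Olfm1 (0.774), Hnrnpk (0.766), Hnrnpa2b1 (0.869), Malat1 (0.825), Crym (0.792), Tbr1 (0.727), Pcna (0.788) and Neu3 (0.889). Array 200-2 was low for Neurod2 (0.764) and high for Cplx2 (0.735).

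Among pools of 400, array 400-1 was low for Ndufv2 (0.801), Pfn2 (0.846), Cplx1 (0.712), Neurod1 (0.725), Neu3 (0.797), Dynll1 (0.853), Asns (0.755) and Hnrnpm (0.732) and in its mean correlation with the other arrays (0.795). It was high for Sncb (0.864), Prox1 (0.81), Gfap (0.802), Krt31 (0.894), Lypla2 (0.74), Rian (0.73), Sf3b4 (0.737) and the mean of the olfactory and vomeronasal receptor genes (0.83). Array 400-2 was low for Lhx6 (0.814) and high for Cck (0.824).

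Outside the gene table, 860 of the 9160 probe sets with no gene symbol (9.39%) had mean levels above the reference of 9.00, against 13.7% of those with 1 symbol.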

How the results depend on the processing

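The count of genes called for pool size was 0 under quantile normalisation, range scaling, the other probe set rules, ordinary least squares and with the replicate number as a block. It was 3 (2 higher, 1 lower) among the short-format arrays, 1 with pool size as a factor and 0 to 2 with 1 array left out. The slope of Tle4 was 0.76 per doubling and -0.33 with the highest probe set. The count between number formats was 360 under quantile normalisation (98 higher, 262 lower) and 372 under range scaling (95 higher, 277 lower), 99 without 200-1 and 400-1, 117 without the pool size covariate, 24 by ordinary least squares, 141 among the 1760 genes above the reference, and 0 to 1415 with 1 array left out. It was 73 without 100-3, 65 without 400-4, 101 without 400-5, 145 without 400-3, 148 without 100-4, 155 without 200-5, 186 without 400-2 and 209 without 200-3, and lower than the full count by over 1.5 times without 100-2 too. Of the 8 genes named by the rule for this contrast, 8 were not called without 400-1 and 6 without 200-1.

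Of the 910 genes of the top 5%, 372 remained with the highest probe set and 885 to 906 with 1 array left out. Among the 9183 genes with 1 probe set the top 5% held 459 genes, with unchanged levels and a higher limit. All 459 lie in the 910 by construction, so this count measures no loss. Genes not above the reference numbered 8619 at its 75th percentile, 9097 at the median of all genes, 8203 among genes with 1 probe set and 16313 to 16536 with 1 array left out. Of the most variable 5%, 398 remained with the highest probe set, 551 among short-format arrays, 426 by median absolute deviation and 739 to 876 with 1 array left out. The most variable 5% of genes with 1 probe set again held 459 genes, all of them shared by construction. Genes of the top 5% in any list numbered 83 among the 459 with 1 probe set, a smaller set, and 196 to 203 with 1 array left out. Median gene length of the top 5% was 27.0 kb with the highest probe set, 15.3 kb without probe sets marked as matching several transcripts, 12.6 kb with 1 probe set and 14.2 to 14.96 kb with 1 array left out. The Actb difference between formats was -0.35 without 200-1 and 400-1 and -2.24 to -1.13 with 1 array left out (exact p from 0.00699 to 0.0874), that of Gapdh -0.12 without 200-1, -0.17 without both and up to 0.57. The cause of these differences was not tested.

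For the mean levels of the genes named in the text, 3774 of 3851 values moved by less than 1 SD. The other 77 came from another choice of probe sets, 47 from the highest one. Leaving out arrays as done here cannot move a mean by 1 SD. This limit therefore does not show how far a level rests on single arrays. Replicate numbers did not pair the arrays: over 13 pairs of the same number in different pool sizes the correlation of deviations ran from -0.258 to 0.522 with a median of -0.061, against -0.376 to 0.254 for 52 pairs of different numbers. With the replicate number as a block the fit called 0 genes for pool size and 31 between formats, 2 of them among the 377. Array signals give no depth, and levels near the reference cannot be told from absence.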

Other observations

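RNAs of the nucleus and of RNA processing were also among the high signals. Of 13 long noncoding and nuclear RNAs 3 were in the top 5% and 5 above the reference level. Meg3, an imprinted noncoding RNA of neurons, was at 10.74 ± 0.85 (8.61 in array 400-2 to 11.80 in 100-1), Rian, from the same imprinted cluster, at 9.98 ± 0.40, and Malat1, a noncoding RNA of nuclear speckles, at 9.93 ± 0.95 (7.70 in 200-1 to 11.31 in 100-1, with an SD of 0.60 without 200-1 and 400-1). Their 11, 4 and 7 probe sets differed by 9.26, 7.94 and 8.18 in mean level, so each level depended on the choice of probe set. Of 24 hnRNP genes, whose proteins package and carry mRNA, 4 were in the top 5% and 8 above the reference. Hnrnpm was at 10.94 ± 0.55, and Hnrnpa2b1 ran from 5.92 in 200-1 over a median of 10.48 to 11.24 in 100-3, with an SD of 1.34 that was 0.51 without 200-1 and 400-1. Of 43 splicing factors 4 were in the top 5%, led by Sf3b4 at 11.27 ± 0.33.

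Of 18 immediate early genes, which neurons switch on with activity, 1 was above the reference level, the nuclear receptor Nr4a2 at 10.07 ± 0.72, by the median of probe sets. Nr4a3 and Jun also had a probe set above it, that of Nr4a3 at 11.002 ± 0.667, so that 3 of 18 (16.7%) did against 22% of all genes. Fos was at 8.05 ± 0.72 and Egr1 at 8.72 ± 0.44, each above the reference of the array in 2 arrays, and both had their highest level in 400-1.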
